A study of Mus musculus with 7 samples.

Results

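A strong natural stop is a transcript position at which reverse transcriptase (RT) ended its cDNA very often although no reagent had been added. The positions described here were taken from the 2 non-treated (NT) libraries of CIRS-seq, summed, by 2 limits: at least 200 RT stops at the position, and at least 50 times the mean count over the positions that the same transcript lists. Copies of 1 gene symbol at the same position and with the same count were counted once. This left 4108 members of 6966077 listed positions, on 1681 of 26827 transcripts and under 1078 of 12030 gene symbols. They lie at 2800 distinct places in the mouse genome (mm9), because isoforms share exons, and only 1777 different runs of 25 bases follow them.

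CIRS-seq probes RNA that was freed of proteins, in the lysate of E14 cells, a mouse embryonic stem cell (ESC) line. The lysate received dimethyl sulfate (DMS) at 50 to 200 mM, the carbodiimide CMCT at 10 to 50 mM, or no reagent, with 2 biological replicates each, and RT was primed at random. RNA-seq of the same line is 1 library. The same wild-type line was used in every group, and no allele or other agent differed between them.

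As background, RT copies RNA from the 3′ toward the 5′ end and stops where the template ends, at a base whose Watson-Crick face carries a methyl group or an adduct, and in stable structures or repetitive stretches. DMS methylates unpaired A and C, and CMCT reacts with unpaired U and, less, with G, so a stop that appears without either reagent has to be known before a reagent signal can be read. RNA polymerase III genes, spliceosomal and nucleolar RNAs and mRNA cap sites all give RNAs with sharp 5′ ends. The listed position is the base next to the last base that was copied, so the 25 bases that follow it are the start of the cDNA's sense strand. Letters are those of the genome, with T for U.

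The members were chosen by their NT counts, so the size of these counts is described and not tested. The NT counts ran from 209 to 228479 with a median of 3178.5, and the multiples of the transcript mean from 50.0 to 521 with a median of 71.1. Just inside the limits, Qrich1 position 2905 had 1407 stops at 50.02 times the mean. Just outside, Sept2 position 1396 had 1595 stops at 49.99 times the mean, and Abl1 position 1442 had 199 stops at 56.52 times. The smallest counts inside were 209, at Ckap2 and Glg1. Most members came in clusters: 3187 of 4108 lie within 3 bases of another member on the same transcript.

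A pair of properties of the files touches every count below. The 6 libraries summed to 139732494 to 246588849 stops with each genomic position taken once. These sums exceed the number of reads that the study reports per treatment, so the stops cannot all be separate reads. The members held 5.54% and 6.79% of the NT replicates, 3.08% and 5.14% of DMS and 3.93% and 2.86% of CMCT. The 25 bases after a member had a median of 581.5 copies in mm9, and 69.1% of the members had 100 or more. First, members in copied letters, such as those of B1 and B2, can carry nearly the same counts, and such members cannot be taken as separate observations. Second, the 2 replicate counts lay within 1 of each other in NT, DMS and CMCT alike at 1872 members (45.6%), against 14.6% of the 156560 other positions with at least 200 NT stops and 46.2% of all listed positions, for which no minimum was set. The median NT replicate 1 count of these members was 1062. At that count, counting alone would set 2 libraries apart by 46.1 stops (SD) if each stop were a separate read. At these members the replicates differed by less than this sampling noise and count as 1 sample. The CMCT replicates differed at least 2-fold at 37.6% of the genomic positions, the DMS replicates at 17.6% and the NT replicates at 5.96%. The RNA-seq library held 120 (Utf1) to 6890 (Dppa5a) alignments per kb of exon for the 10 ESC genes, among them Pou5f1 at 2570, with 1.22 or fewer per kb for Col1a1, Col1a2 and Col3a1 of fibroblasts, 6.92 for Thy1, 1.16 for Hbb-b1 and 0.172 for Ptprc of blood, 12.7 to 101 for the 4 endoderm genes, and 362 for Tubb3 and 1.55 for Rbfox3 of neurons.

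The sequences below show what kinds of RNA the members lie in. Each runs 5′ to 3′ on the transcript strand over 30 bases, with the listed base in capitals, 5 bases before it and 24 after it. The first group is mRNA leaders, the second the small RNAs and the small RNA genes within longer transcripts, and the third the repeats.
Rps20, chr4:3762724-3762753, minus strand: gccccTcctttctgagccccggcggtgcgc
Rps12, chr10:23506984-23507013, minus strand: cgccgGccttttcccctgccgccgccgact
Rpl23, chr11:97643675-97643704, minus strand: taactTcctttctgaccctttccgggcgtt
Rpl8, chr15:76734508-76734537, plus strand: ctattTcctctttcggccttgcttgccggc
Eef1a1, chr9:78329456-78329485, minus strand: ggacgTtctttttcgcaacgggtttgccgt
Hsp90aa1, chr12:111934497-111934526, minus strand: gcgcgCcagttgcttcagtgtcctggtgcg
Ftl1, chr7:52715186-52715215, minus strand: ggactTagagcagcgccttggaggtcccgt
Mt2, chr8:96696678-96696707, plus strand: ctctcCatcacgctcctagaactcttcaaa
RNaseP_nuc, chr3:22150320-22150349, plus strand: ccacgTgctgagtgctggtcactcttcggc
7SK, chr14:18717435-18717464, minus strand: cggttTtcggtcaagggtgtacgagtagct
U3, chr11:87284956-87284985, plus strand: agacgTagcgttccctcctgagcgtgaagc
U1, chr2:116793864-116793893, minus strand: tggatCacaaaggtggttttcccagggcga
U1, chr6:97522187-97522216, minus strand: ggaggTaccatgatcacaaaggtggttttc
U5 within B930036N10Rik, chr1:173433271-173433300, minus strand: ctgggTatactctggtttctcttcagatcg
SNORD56 within Nop56, chr2:130103426-130103455, plus strand: gcagcTtctacaatgatggtaatatttttc
Snord14e within Hspa8, chr9:40612825-40612854, plus strand: gagggGtcacaatgatgatgaatggtccaa
Atpaf1, chr4:115484053-115484082, plus strand: aaataTatcgcttctcggccttttggctaa
Cenpf, chr1:191464650-191464679, minus strand: ctttgAggggctggtgagatggctcagtgg
Slc2a3, chr6:122689374-122689403, minus strand: tatttTcgggctggtgagatggctcagtgg
Gm12953, chr4:116224861-116224890, plus strand: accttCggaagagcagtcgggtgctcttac
Hnrnpl, chr7:29606992-29607021, plus strand: gtttgGttttttttttttttttcttgtttt
Gna13, chr11:109258982-109259011, plus strand: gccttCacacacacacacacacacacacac

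The classes were set by these following 25 bases and were chosen after the sequences had been seen. A single-base run, in which 20 or more of the 25 bases are alike, followed 2160 members (52.6%), and in 2159 of them that base was T. A dinucleotide repeat followed 951 members (23.1%), 497 of them of G and T and 409 of A and C. Other sequences with 100 or more copies in the genome followed 534 members, those with 2 to 99 copies 210, and those found once 172. A further 65 members lie at an annotated small RNA gene inside a longer transcript, and 11 in small RNA genes themselves. The last class also takes in the mitochondrial large rRNA mt-Rnr2, which is not a small RNA. Beside the members, 8.74% of the other positions with at least 200 NT stops preceded a single-base run and 35.6% a dinucleotide repeat. The 25 bases occur once in mm9 at 6.48% of the members and at 9.78% of those other positions.

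**Figure D1:**
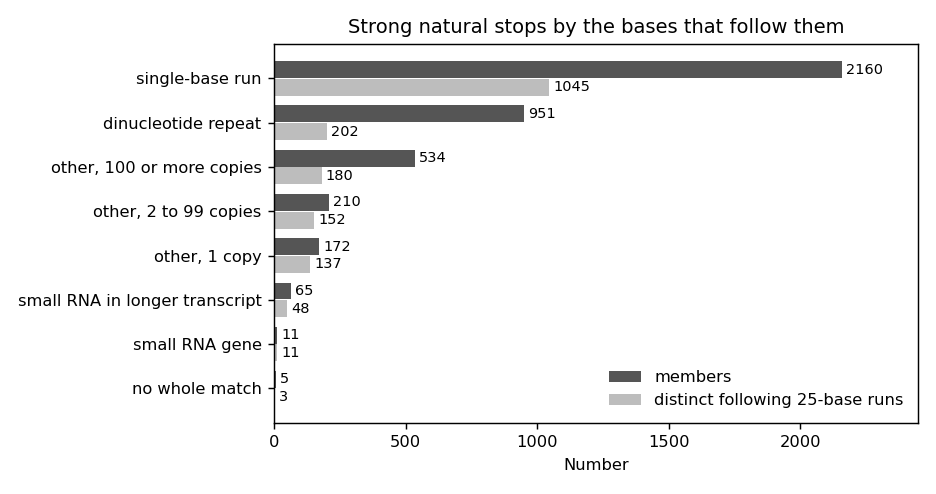
Horizontal bars give the number of members in each sequence class (dark) and the number of different 25-base runs that follow them (light). Single-base runs lead with 2160 members and 1045 different runs, and small RNA genes, counted with mt-Rnr2, hold 11 of each.

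By gene, 3944 members (96.0%) belonged to protein-coding genes, which make up 78.5% of the transcripts listed. The first is a share of positions and the second a share of transcripts, which differ in length. The pair is thus no measure of enrichment, and the share of protein-coding genes among all listed positions was not computed. The others were in 76 cases lincRNAs, in 48 processed transcripts, in 28 pseudogenes, in 5 misc_RNAs, in 3 snRNAs (all U1), in 2 snoRNAs (U3 and Scarna2) and in 1 case a mitochondrial rRNA (mt-Rnr2), and 1 member had no place in the annotation. No member lay in the 22 mitochondrial tRNAs, the 559 miRNA transcripts or the 172 rRNA transcripts of the list. The limit is a multiple of the mean over the listed positions, so in a short transcript it takes a large share of all stops. The U1 copy on chromosome 2, of 135 bases, reached 58.2 times the mean with 72.8% of its NT stops. For short RNAs the absence of members is thus partly set by the limit, and whether they lack natural stops was not tested. Within the transcripts, 78.5% of the members lay in the 3′ UTR, against 23.7% of all listed positions and 42.0% of the other positions with at least 200 stops. The coding region held 1.22% of the members but 45.6% of all listed positions, and the 5′ UTR 5.26% and 5.08%. The first 10 bases of a transcript held 19 members (0.463%), against 0.786% of all listed positions. A cDNA that reaches the first annotated base ends next to a base outside the transcript, so such a stop has no listed position. The listed base was T at 43.4% of the members, C at 25.0%, G at 19.6% and A at 11.9%, and over all listed positions T 28.2%, C 32%, G 20.5% and A 19.2%.

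Runs of T in 3′ UTRs made up the largest class. Of the 2160 members before a single-base run, 1908 lay in a 3′ UTR and none in a coding region. Hnrnpl, which encodes an mRNA-binding protein that regulates splicing, had the most members of any symbol with 44, all before single-base runs, at 10 genomic positions on 6 transcripts. Mga (37 members), Ptprs (35) and Celf1 (33) followed, with every member before a single-base run. At Hnrnpl position 1579 the NT replicates held 4132 and 4132 stops, the DMS replicates 1087 and 1087 and the CMCT replicates 1073 and 1073. Both replicates gave the same number in each treatment, as within 1 stop at 1781 of the 2160 members of the class, so no spread between replicates can be given there. The highest count of the class was at Alkbh5, an RNA demethylase gene, at position 5072, with 10090 and 7514 stops in NT, 1495 and 1588 in DMS and 2817 and 1516 in CMCT. Here the replicates did differ, and all 4 reagent counts lay under both NT counts.

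The dinucleotide repeats carried higher counts, with a median of 10537 summed NT stops against 2565 for the single-base runs. Gna13, a G protein alpha subunit gene, had the highest count of this class at position 2464, with 12003 and 11164 stops in NT, 11215 and 7971 in DMS and 20903 and 8257 in CMCT. Clcn3, a chloride-proton exchanger gene, lay close at position 3996, with 11936 and 11096 in NT, 11172 and 7928 in DMS and 20864 and 8218 in CMCT. Both share their following 25 bases with 1779013 places in mm9 and are better read as 1 value than as 2.

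A large share of the copied sequences are letters of the short interspersed elements B2 and B1, which RNA polymerase III transcribes and which also lie inside many mRNAs. The reference used here marks no repeats, so letters were read after 1 member each, Cenpf and Gm12953, and then searched for. The letters come from the members themselves, so their counts among the members are a description and no test. GAGATGGCTCAG, close to the 5′ end of B2, lay in the following 25 bases of 208 members under 107 symbols, starting 8 to 13 bases after the listed base and most often (123 members) at 10. Its reverse complement lay after none, and 1.31% of the other positions with at least 200 stops had GAGATGGCTCAG after them. GAAGAGCAGTC, which is B2 read from the opposite strand, followed 106 members, and its reverse complement 2. Members linked to each other by a shared run of 14 bases formed a B2 group of 498 members under 263 symbols and a B1 group of 87 members under 42 symbols.

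The member with the largest multiple of all was of the B2 kind. Slc2a3, a neuronal glucose transporter gene, in a retained-intron transcript at position 854, had 19606 and 27419 stops in NT (521 times the mean), 8060 and 30679 in DMS and 8774 and 2169 in CMCT. Cenpf, a kinetochore protein gene, in the 3′ UTR at position 10941, had 19911 and 27651 in NT (332 times), 8153 and 30921 in DMS and 9174 and 2454 in CMCT. Both positions precede the same B2 letters and have nearly the same 6 counts, and their DMS replicates were further apart than DMS was from NT. Xpo7, a nuclear transport receptor gene, reached 441 times the mean at position 11611 with 3054 and 4616 stops in NT, 981 and 3484 in DMS and 1819 and 232 in CMCT, before letters of the opposite strand of B2. Urb2 at position 4978 (393 times) preceded a repeat of A and C with 4761 and 4908 stops in NT, 2357 and 2144 in DMS and 5622 and 690 in CMCT. Gna11, a G protein alpha subunit gene, at position 1521 (334 times) had 2251 and 1571 in NT, 120 and 205 in DMS and 909 and 65 in CMCT. Its DMS counts lay under both NT counts, as did both CMCT counts.

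The highest counts in lincRNAs and processed transcripts were also in copied sequence, and that in a pseudogene was not. Among the lincRNAs, Gm16869 at position 855 had 13447 and 40138 stops in NT, 1569 and 1466 in DMS and 9641 and 837 in CMCT, in letters of 47 copies. Gm17256 at position 2334 had 21024 and 28916 in NT, 8699 and 31569 in DMS and 10252 and 3336 in CMCT, and Gm17362 at position 366 had 20900 and 28790 in NT, 8621 and 31490 in DMS and 10113 and 3196 in CMCT. These 2 genes lie on different chromosomes, precede the same B2 letters and have nearly the same counts. The processed transcripts Gm12953 at position 522 and Gm15645 at position 809 matched even more closely, with NT counts of 18939 and 26829 in the first and 18938 and 26830 in the second. BC018473, also a processed transcript, held 27897 and 27896 stops in NT at position 3070, 3670 and 3671 in DMS and 14806 and 14807 in CMCT. Of the pseudogenes, Gm11942 at position 12, found once in mm9, had 5458 and 3304 in NT, 1887 and 3678 in DMS and 2721 and 752 in CMCT. Gm10286 at position 795 had 3054 and 4616 in NT, 981 and 3485 in DMS and 1815 and 229 in CMCT, and Gm15823 at position 284 had 2415 and 1642, 123 and 206, and 934 and 64 in the same order. The counts of Gm10286 are those of Xpo7 to within 4 stops in every library.

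In the B1 group some members had close counts and others did not. At Spc24, a kinetochore gene, position 996 had 2874 and 2861 stops in NT, 2319 and 2806 in DMS and 2482 and 2404 in CMCT. At Tecpr2 position 6918 the counts were 2591 and 2592 in NT, 2132 and 2135 in DMS and 2285 and 2285 in CMCT. Srr, the serine racemase gene, at position 846 stood higher with 5831 and 5890 in NT, 4036 and 5075 in DMS and 7125 and 7085 in CMCT. Of the B1 group, 89.7% were also strong with DMS and 95.4% with CMCT.

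Small nuclear and nucleolar RNAs gave the highest single counts. U5, a spliceosomal snRNA, is annotated in the 3′ UTR of B930036N10Rik, and the base before its first annotated base (position 948) had the highest NT count of all members: 107049 and 121430 in NT, 7417 and 13643 in DMS and 67987 and 62145 in CMCT. The following 25 bases occur at 11 places in mm9, so these counts cannot be assigned to this copy alone. The RNA-seq library had 0 alignments over the position. U3, the nucleolar RNA of pre-rRNA processing, had 143229 and 68511 stops in NT at position 92, 93446 and 80616 in DMS and 366556 and 302278 in CMCT. Both CMCT counts of U3 lay above all its NT and DMS counts, whose raw values overlapped. Scaled per library, U3 had 876 and 550 in NT, 441 and 407 in DMS and 1780 and 2010 in CMCT, with no overlap. In U5 the NT counts were highest, the CMCT counts followed and the DMS counts were lowest, with no overlap. Of the 3 members in U1, the snRNA that pairs with the 5′ splice site, the one on chromosome 2 at position 22 had 103653 and 16533 in NT, 24748 and 6707 in DMS and 41065 and 8874 in CMCT. The one on chromosome 3 at position 32 had 92118 and 4947 in NT, 23632 and 5584 in DMS and 37823 and 5574 in CMCT. The raw NT counts of both copies thus differed more than 5-fold between replicates. Scaled per library, the NT values were 634 and 133 on chromosome 2 and 563 and 39.7 on chromosome 3. The one on chromosome 6 at position 22 had 36254 and 36254, 501 and 501, and 9961 and 9962 in that order. These U1 copies share 3, 1 and 6 places by their following 25 bases, and the RNA-seq library had 0 alignments over each of the 3. Among all 4108 members, the RNA-seq library had 0 alignments at 1158.

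Atpaf1, the gene of an assembly factor of the mitochondrial ATP synthase, carried the letters of another snRNA. At position 1299 in its 3′ UTR the NT replicates held 37498 and 37505 stops, the DMS replicates 21099 and 21113 and the CMCT replicates 20547 and 20548. The letters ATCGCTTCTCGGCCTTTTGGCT, with which U2 begins, start at the next base, although no U2 gene is annotated there, and 169 places in mm9 share the 25 bases. It was the only member with these letters, and 8 of the other positions with at least 200 stops had them.

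Of the misc_RNAs, RNaseP_nuc, the RNA subunit of nuclear RNase P, which matures the 5′ ends of tRNAs, had 4677 and 4676 stops at position 30 in NT, 12 and 18 in DMS and 1637 and 1635 in CMCT. The stop was all but gone with DMS, at 0.221 times the transcript mean, and in CMCT it stood at 32.1 times, under the limit of 50, against 67.9 times in NT. A copy of 7SK, the RNA that holds P-TEFb inactive, had 7606 and 7607 stops in NT at position 189, 595 and 595 in DMS and 3336 and 3337 in CMCT. This copy, on chromosome 14, is 1 of 98 listed 7SK transcripts, and the RNA-seq library had 0 alignments over the position. The gene AC102240.1 had 23092 and 23078 in NT at position 195, 3729 and 3727 in DMS and 11954 and 11954 in CMCT. In these 3 RNAs the groups stood apart in the order NT, CMCT, DMS, with replicates that differed by at most 14 stops. The telomerase RNA (listed as Telomerase-vert) had 894 and 1530 in NT at position 26, 209 and 226 in DMS and 323 and 117 in CMCT, where the reagents overlapped. In the mitochondrial large rRNA mt-Rnr2, position 600 had 3576 and 3214 in NT, 5993 and 3875 in DMS and 6484 and 1692 in CMCT. Scaled per library, all its groups overlapped, with 21.9 and 25.8 in NT, 28.3 and 19.6 in DMS and 31.5 and 11.3 in CMCT. Scarna2, a guide RNA of Cajal bodies, had 2101 and 3823 in NT at position 4, 360 and 6257 in DMS and 2212 and 367 in CMCT.

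The small RNA genes inside longer transcripts were nearly all snoRNAs, in transcripts of their host genes. Box C/D snoRNAs guide ribose methylation and box H/ACA snoRNAs pseudouridylation, and most are cut from introns of genes of the translation machinery. The 65 members lie at 49 genomic positions, 46 of them in snoRNAs, and cover 36 small RNA genes in 26 host symbols. In 76.9% of the members the host transcript has no annotated coding region. Relative to the first annotated base, 20 positions lie 1 base before it and 14 lie 2 bases before it, and 39 of 49 lie from 3 bases before it to the base itself. Only Snhg1 position 1920 and Eif4g2 lie more than 5 bases inside the small RNA.

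**Figure D2:**
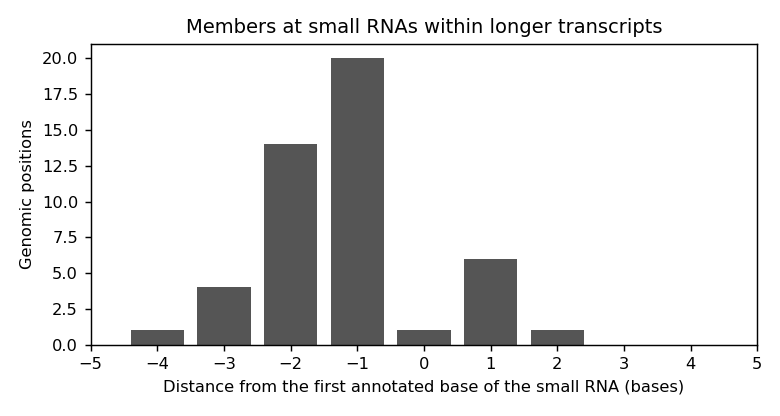
Bars give the number of genomic positions of members by their distance in bases from the first annotated base of the small RNA that they meet (negative: before it). The bars peak with 20 positions at 1 base before the start and 14 at 2 bases before it, and 2 positions further inside are not drawn.

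Hspa8, the gene of the constitutive Hsc70 chaperone, held members at 3 of its snoRNAs. The base before Snord14d (position 1953) had 9080 and 8341 stops in NT, 1262 and 1263 in DMS and 2067 and 1181 in CMCT, and the base before Snord14c (position 1541) had 9013 and 8275, 1251 and 1252, and 2056 and 1168. Snord14c and Snord14d share their first 25 bases, so their counts cannot be told apart. Snord14e at position 2706, found once, had 5509 and 5696 in NT, 835 and 839 in DMS and 4028 and 3698 in CMCT, with 3 groups that did not overlap. In Nop56, the gene of a core box C/D protein, SNORD56 at position 1857 had 1382 and 3783 in NT (319 times the mean), 152 and 767 in DMS and 481 and 67 in CMCT. In Gas5, a snoRNA host gene, SNORD24 had 3487 and 1666 in NT, 495 and 403 in DMS and 1721 and 320 in CMCT, and SNORD75 had 1770 and 1779, 266 and 371, and 1999 and 999. Rps2 (Snora64) had 3776 and 10178 in NT, 667 and 8898 in DMS and 3627 and 705 in CMCT, and Top2a (SNORA32) 600 and 4609, 117 and 2494, and 555 and 122. In the last 2 genes the replicates of every group differed more than 2-fold, the second being higher in NT and DMS and lower in CMCT.

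The leaders of mRNAs formed a group of their own. Leaving out small RNAs, single-base runs, dinucleotide repeats, B1 and B2 and sequences with 100 or more copies, the 5′ UTR held 104 members at 88 genomic positions under 77 symbols, of 6561 protein-coding symbols with a 5′ UTR (1.17%). Ribosomal protein genes gave 28 of these symbols, which is 36.8% of the 76 listed, against 0.756% of the 6485 others. Their transcripts also held more stops, and the part of depth in the difference was not tested: the median NT total of the deepest transcript of a symbol was 19976.5 stops for ribosomal protein genes and 3353 for the others. The mRNAs of ribosomal proteins and of translation factors begin, as background, with an oligopyrimidine tract (5′ TOP) that follows the cap. All 29 genomic positions in ribosomal protein mRNAs were followed by at least 5 pyrimidines, as in the 4 sequences above, against 9 of 59 in other mRNAs and 5.15% of the 353667 listed 5′ UTR positions.

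Rps20 had the highest count of them, with 17493 and 36313 stops in NT at position 65, 3434 and 48467 in DMS and 8256 and 1454 in CMCT. As raw counts its DMS replicates lay on both sides of NT. Scaled per library its DMS replicates were 16.2 and 245, against 107 and 292 in NT. Neither scaled DMS value lay above both NT values. Rps12 at position 8 had 12255 and 6172 in NT, 5470 and 9314 in DMS and 5977 and 2494 in CMCT, and Rpl8 at position 13 had 1435 and 1146, 1055 and 1135, and 1683 and 581. Over the 29 positions the NT counts ran from 763 to 17493 in replicate 1 and from 648 to 36736 in replicate 2. Eef1a1, the elongation factor that brings aminoacyl-tRNA to the ribosome, had 8911 and 7385 stops in NT at position 52 (133 times the mean), 4592 and 8347 in DMS and 11510 and 1509 in CMCT. Eef2, the translocation factor, had 2095 and 1322 in NT at position 14 (118 times), 764 and 550 in DMS and 1199 and 212 in CMCT. In the sequence above, pyrimidines follow the Eef1a1 stop.

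Other leaders with members code for the ferritin light chain (Ftl1), the cytosolic chaperone Hsp90 (Hsp90aa1), nucleophosmin (Npm1) and the metallothioneins (Mt1 and Mt2). Hsp90aa1 had the largest multiple of all leaders (294) with 4700 and 2951 stops in NT at position 85, 1582 and 1521 in DMS and 3371 and 1145 in CMCT. Ftl1 had 8041 and 14324 in NT at position 45, 3512 and 12880 in DMS and 5443 and 803 in CMCT. Npm1 had 1936 and 476 in NT at position 130, 932 and 484 in DMS and 1039 and 208 in CMCT. The raw NT counts of Npm1 enclosed both DMS counts. Scaled per library, the Npm1 pairs only overlapped, with 11.8 and 3.82 in NT and 4.39 and 2.44 in DMS. In Hsp90aa1 both DMS counts stayed under both NT counts.

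**Figure D3:**
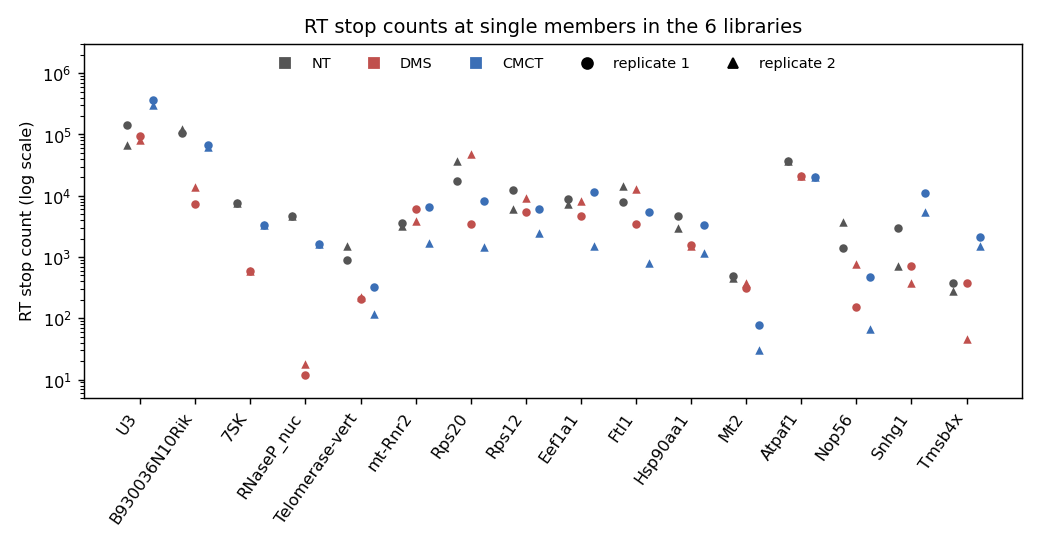
RT stop counts (log scale) at 16 members, with NT in grey, DMS in red and CMCT in blue, and with replicate 1 as circles and replicate 2 as triangles. RNaseP_nuc falls from 4677 and 4676 in NT to 12 and 18 in DMS, while Mt2 has 314 and 372 in DMS and 77 and 30 in CMCT.

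Most members stayed strong when a reagent was added. By the same limits, 3491 of 4108 members (85.0%) were strong in DMS and 3355 (81.7%) in CMCT, where 0.0925% and 0.117% of all listed positions pass and 1.58% and 2.68% of the other positions with at least 200 NT stops. It was 94.7% in DMS and 93.9% in CMCT before dinucleotide repeats, and 91.9% and 86.4% before single-base runs. It was 36.6% and 45.9% for sequences found once, and 49.2% and 64.6% at small RNA genes within longer transcripts. In the mRNA leaders it was 29.8% in DMS and 9.62% in CMCT, and none of the 5 misc_RNA members passed in DMS. Scaled per library, the counts at the members were lower with reagent: the median difference from NT over the 2800 genomic positions was -1.88 in DMS and -1.85 in CMCT on the log2 scale. Both DMS replicates lay under both NT replicates at 2325 positions and above them at 106, and for CMCT at 2187 and 225. NT chose the members, so these are values with no test.

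**Figure D4:**
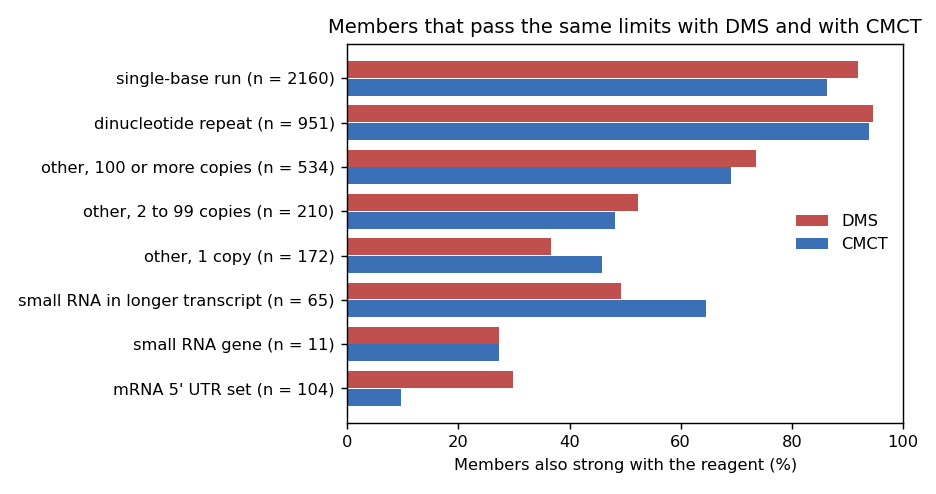
Bars give the percentage of members in each class that also pass the limits of 200 stops and 50 times the transcript mean with DMS (red) or CMCT (blue). The last line is the mRNA 5′ UTR set, whose 104 members are also counted in the classes above; its shares are 29.8% and 9.62%, against 91.9% and 86.4% for single-base runs.

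Neither DMS nor CMCT chose the members, so the reagents were compared with edgeR's quasi-likelihood test over all 732794 genomic positions with at least 50 stops in the 6 libraries. Of these, 31.5% passed an adjusted p of 0.05, 13.6% higher in DMS and 18.0% higher in CMCT. Of the 2800 member positions 116 passed (4.14%), 6 higher in DMS and 110 higher in CMCT, and 174 had an unadjusted p under 0.05. The other positions with at least 200 NT stops passed in 15.2% of cases. None of the 1409 positions before single-base runs and none of the 593 before dinucleotide repeats passed. The split moved with the scaling alone: with the size factors of DESeq2, which move the median of all positions from -0.18 to 0.10, edgeR called 20 members higher in DMS and 82 higher in CMCT. It was 81 and 97 with DESeq2 itself, which changes the model as well, and 43 and 61 in a fit to the 4 reagent libraries alone. It also depends on single libraries, with 51 calls without DMS replicate 1, of which 33 were higher in DMS and 18 higher in CMCT, so that the larger side changed, 9 without DMS replicate 2, 76 without CMCT replicate 1 and 40 without CMCT replicate 2. Without the positions whose replicates agree within 1 stop in all groups, 50 of 1576 members passed, 8 higher in DMS and 42 higher in CMCT.

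**Figure D5:**
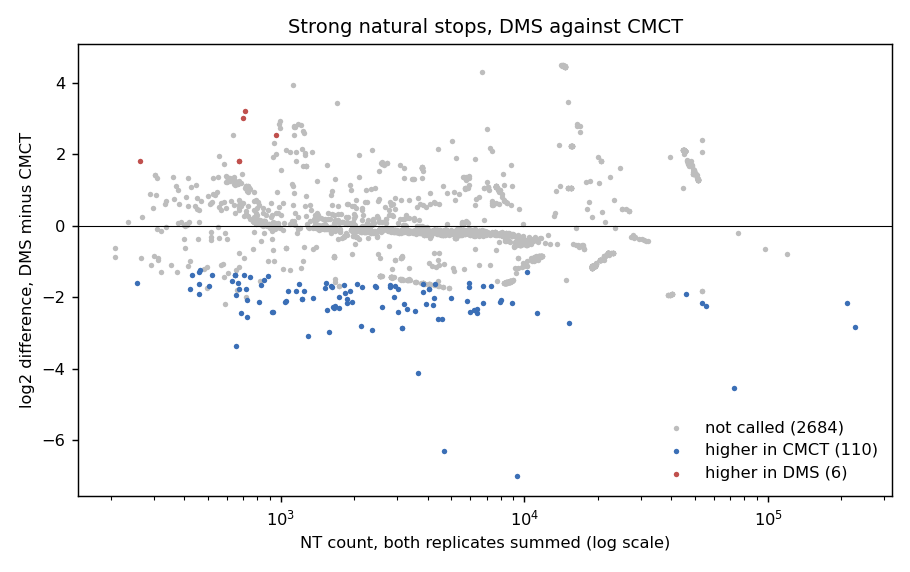
Each point is 1 of the 2800 genomic positions of members, placed by its summed NT count (log scale) and by the log2 difference of DMS minus CMCT. The 110 positions called higher in CMCT (blue) lie under 0 down to RNaseP_nuc at -6.99, the 6 called higher in DMS (red) have at most 952 NT stops, and the grey bands near 0 are positions in repeats with shared counts.

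The largest difference among the members called was at RNaseP_nuc position 30, lower in DMS, with a DMS minus CMCT difference of -6.99 ± 0.52 (log2, SE; adjusted p = 0.00614). Next came Tmem38b position 1493, where a 5S rRNA-like gene (n-R5s185) lies in the 3′ UTR, with 2337 and 2338 stops in NT, 51 and 51 in DMS and 3427 and 3426 in CMCT, a difference of -6.31 ± 0.44 (adjusted p = 0.00614). The 25 bases after the Tmem38b position occur at 5 places in mm9, and the RNA-seq library had 0 alignments over it. The U1 copy on chromosome 6 differed by -4.55 ± 0.43 (adjusted p = 0.00614). These 3 passed under every alternative in which they were tested, 15 for RNaseP_nuc and 13 each for Tmem38b and U1. Tmem38b and this U1 copy were not tested among runs found once in mm9 or without positions of equal replicates. Outside the named members, Fundc2, Gm17646 (positions 307 and 515), Lamp2 and Brip1 also passed under all 12 alternatives that covered all positions. Their differences were -2.98, -2.87 at both Gm17646 positions, -3.07 and -2.8 (log2). The replicates of Fundc2, Lamp2 and Brip1 agree within 1 stop in every group. With the transcript total as the offset the difference stayed at -6.78 in RNaseP_nuc but was -3.21 in Tmem38b and -2.43 in U1. Also, the replicates of Tmem38b and of this U1 copy agree within 1 stop in every group, which leaves 1 sample per group. Those of RNaseP_nuc agree within 1 stop in NT, 2 in CMCT and 6 in DMS, so its spread is also no measure of separate replicates in NT and CMCT. Snhg1 position 1920, inside Snord22, had 2927 and 725 in NT, 707 and 382 in DMS and 11271 and 5449 in CMCT, a difference of -4.11 ± 0.72 (adjusted p = 0.0123). It was lost with the transcript total as the offset and without DMS replicate 2, CMCT replicate 1 or CMCT replicate 2. Tmsb4x, the gene of the actin-binding peptide thymosin beta 4, had 370 and 282 in NT near its 3′ end (position 805), 374 and 46 in DMS and 2117 and 1542 in CMCT, a difference of -3.36 ± 0.94 (adjusted p = 0.0454). It was lost under 9 of 15 alternatives, among them the removal of either NT or either CMCT replicate.

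Higher in DMS were Cdc26 position 2110 and Scaf11 position 5625, both in 3′ UTR letters of the B2 group. Cdc26, the gene of a subunit of the anaphase-promoting complex, had 579 and 130 stops in NT, 564 and 527 in DMS and 89 and 21 in CMCT, a difference of 3.2 ± 0.82 (adjusted p = 0.0354). Scaf11 had 567 and 131, 523 and 454, and 88 and 23 in that order (3.02 ± 0.78, adjusted p = 0.0363). Both were lost without either DMS or either CMCT replicate, with a minimum of 10 stops and with the transcript total as the offset. In the leader of Mt2, a metallothionein that binds zinc and copper, position 166 had 491 and 461 in NT, 314 and 372 in DMS and 77 and 30 in CMCT, a difference of 2.54 ± 0.45 (adjusted p = 0.0123), lost only without DMS replicate 2. Mt1 at position 30 had 452 and 544, 305 and 411, and 157 and 65, which did not pass (1.55 ± 0.47, adjusted p = 0.057) but did under 5 of 15 alternatives, DESeq2 (adjusted p = 0.0105) and the transcript total as the offset (adjusted p = 0.0288) among them. Akr1b3, the aldose reductase gene, and its pseudogene Gm6644 share their letters and their counts of 306 and 367 in NT, 307 and 312 in DMS and 81 and 70 in CMCT, with a difference of 1.81 ± 0.38 (adjusted p = 0.0197 and 0.0198). They were lost without either DMS or either CMCT replicate. The sixth, Nsun4 at position 315 in its coding region, was named after its values were seen; its replicates agree within 1 stop in every group.

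Of all positions tested, 18.0% passed as higher in CMCT and 31.5% in either direction. Of the 11 members in small RNA genes (counted with mt-Rnr2, which did not pass) 5 passed (45.5%), and of the 49 positions of small RNA genes within longer transcripts 12 (24.5%), all of them higher in CMCT. Beside RNaseP_nuc and U1, these were 7SK (-2.73 ± 0.38, adjusted p = 0.00738, with replicates equal within 1 stop and so 1 sample per group), U3 (-2.16 ± 0.44, adjusted p = 0.0187) and AC102240.1 (-1.92 ± 0.38, adjusted p = 0.0174). The replicates of AC102240.1 lie within 14 stops of each other in NT, 2 in DMS and 0 in CMCT, closer than counting alone would set them, so it too counts as 1 sample per group. U5 within B930036N10Rik differed by -2.84 ± 0.53 (adjusted p = 0.0146) and Snord14e within Hspa8 by -2.44 ± 0.37 (adjusted p = 0.00851). Snord14c and Snord14d of the same host differed by -0.54 ± 0.34 each and did not pass (adjusted p = 0.283 and 0.284). With the transcript total as the offset the differences were -0.73 in 7SK, -0.47 in U3, -0.53 in U5 and -1.63 in Snord14e, and -1.92 in AC102240.1. Of the calls in this paragraph, 7SK was lost without DMS replicate 2 alone, Snord14e without either DMS replicate, U5 without either DMS replicate or CMCT replicate 2 and with the transcript total as the offset, and U3 and AC102240.1 without either DMS replicate, without CMCT replicate 2 and in the fit to the 4 reagent libraries, U3 with the transcript total as the offset as well. The mRNA leaders showed 2 calls in 88 positions and the ribosomal protein leaders none in 29, with a median difference of 0.48 (log2).

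In the B2 group, 71 of 404 genomic positions passed as higher in CMCT (17.6%, beside 18.0% of all positions tested) and 2 as higher in DMS. Of the 71, 51 preceded the same letters. The letters GGTGGCTCACAACCA, which lie in the middle of B2, followed 51 genomic positions of members under 33 symbols, at 3 bases after the listed base in 32 of them and at 5 in 19. All 51 passed as higher in CMCT, with differences from -2.60 to -1.62 and a median of -2.01 (log2). The calls rest on single libraries: 0 of 51 remained without DMS replicate 2, 2 without DMS replicate 1 and 12 without CMCT replicate 2, and 27 in the fit to the 4 reagent libraries. The reverse complement followed 7 genomic positions. The site was chosen after the calls had been seen, and its copies share their letters, so the 51 positions are not 51 separate observations. BC018473 of the same group, at position 3070, differed by -2.25 ± 0.39 (adjusted p = 0.0119), with replicates that agree within 1 stop in every group and so count as 1 sample each, a call lost without either DMS replicate and with the transcript total as the offset.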

How the data were processed

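CIRS-seq libraries of E14 cells were analysed as deposited: 2 NT, 2 DMS and 2 CMCT libraries, their sums per treatment, and 1 RNA-seq library. According to the submitters' processing notes the authors used Bowtie 1.0.0, TopHat2 2.0.6, FastQC 0.10.1 and bedtools 2.17.0 with mm9. Per the study's methods the reads were mapped to a variant of mm9 that carries E14 single-nucleotide variants. The deposited values are raw counts of RT stops per transcript position, not normalised, and positions without a stop are not listed. The deposited RNA-seq file holds 1 line per alignment with no other score in use, and alignments were counted. The summed NT file differs from the sum of its replicates at 35 positions.

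Transcripts were placed on mm9 by their identifiers with the GENCODE vM1 annotation (26792 of 26827), and copies of the following 25 bases were counted on both strands. DMS was compared with CMCT at each genomic position with at least 50 stops over 6 libraries, taking the larger count where isoforms differed, with edgeR 4.0.16 (quasi-likelihood test, TMM scaling, Benjamini-Hochberg, threshold 0.05, all 6 libraries in 1 fit, limma 3.58.1, R 4.3.3). Differences are log2 values with their SE. DESeq2 1.42.0, other scalings, filters, offsets and left-out libraries were tried, and the fit was tested on simulated data. Tables and figures were made with Python 3.11.15, pandas 2.3.3, numpy 2.4.6 and matplotlib 3.10.9.

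Named members were the symbols with the highest NT count (up to 5 among snRNAs, 3 in each other biotype with 3 or more members), the 5 largest multiples, and up to 5 calls in each direction whose replicates did not overlap. Further members, named to show a kind of RNA, were chosen after their values were seen. The members and lists were chosen with earlier results of these data known. The labels only number the replicates, and the study calls them biological. Some results and sequences are not reported here.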

Additional observations from a re-analysis of the deposited data

How the results depend on the processing

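The number of strong natural stops moved with the multiple of the mean but little with the count minimum, which at 500 stops left 4017 members. A limit of 100 times the transcript mean left 996 members, and a mean over all positions with unlisted ones as 0 gave 64076. Each distinct run of 25 following bases once gave 1777, and runs found once in mm9 gave 266. The NT replicates left out in turn gave 1886 to 3257 members, and without replicate 1 only 44.9% of the positions stayed. For a single replicate, of NT here and of DMS or CMCT below, the count limit was 100 stops in place of 200. The share also strong in DMS was 96.8% at 25 times, 32.4% at 100 times, 44.4% for runs found once and 60.4% to 72.0% with 1 DMS replicate. For CMCT it was 94.5%, 40.3%, 53.0% and 60.5% to 72.8% in the same order. One base upstream of the listed position the shares of A, C, G and T were 18.5%, 18.0%, 25.7% and 37.8%, and 1 base downstream A was 18.3%, C 10.8% and T 51.6%. With each distinct run once C was 23.4%, and for runs found once G was 27.4% and T 35.0%. Leaving out an NT replicate gave 11.9% to 14.3% for A, 20.5% to 23.5% for G and 38.1% to 41.5% for T. The share in the first 10 bases was 0.732% with distinct runs, 1.5% for runs found once, 1.29% over the first 25 bases and 0.43% to 0.795% without an NT replicate. With each distinct run given to 1 member, protein-coding genes held 94.8% of them, and they held 86.5% of members with runs found once, 2 alternatives chosen after seeing the data.

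Between DMS and CMCT the 116 calls became 178 with DESeq2, 14 of 198 for runs found once, 57 of 1775 with each distinct run once and 50 of 1576 without positions of equal replicates, the last pair chosen after seeing the data. Leaving out 1 library gave 9 to 105 calls, the fewest without DMS replicate 2. Without DMS replicate 1 the larger side changed, from 6 higher in DMS and 110 in CMCT to 33 and 18. No named call changed sign, but of the 51 named members that were not called, 35 changed sign under at least 1 alternative, among them Rps20 from 2.39 to -0.62 without DMS replicate 2. The transcript total as the offset gave 18 of these sign changes, the most of any alternative; there Snord14c and Snord14d in Hspa8 went from -0.54 to 0.30. Of the 18 named members called, the call was lost for 14 without DMS replicate 2, 11 without DMS replicate 1, 10 without CMCT replicate 2, 8 with the transcript total as the offset and 7 without CMCT replicate 1. Under the other alternatives 0 to 3 were lost. With the replicate block the calls were 141. Same-numbered samples correlated at 0.58 (NT and DMS), -0.02 (NT and CMCT) and 0.11 (DMS and CMCT) in their deviations, so NT and DMS deviated together, NT and CMCT did not, and the numbers were not taken to pair the samples. The causes of these changes were not tested.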
